A study of Mus musculus with 12 samples.

Results

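Il2rg (ENSMUSG00000031304) encodes the common gamma chain, a cytokine receptor subunit, and its level was followed over the 12 RNA-sequencing libraries of the edited 6DT1 mouse mammary cancer lines. It was chosen by its identifier for the pattern it shows over these libraries, 1 gene of the 982 in the deposited table, so its own differences are described below with their errors and without a test. 6DT1 is a cell line taken from a mammary tumor of a mouse carrying an MMTV-Myc transgene. All 4 lines were given CRISPR constructs and, per the labels, grown in puromycin, with 3 libraries each: sgControl, labelled wild type and carrying a scramble guide, and sg1, sg2 and sg3, each labelled Resf1 KO and carrying a different guide against Resf1, the gene of retroelement silencing factor 1. The study asked whether Resf1 is a metastasis susceptibility gene and tumor suppressor in estrogen receptor-negative breast cancer. It drew on mouse crosses, transplanted cells and chromatin data, with RNA sequencing of Resf1-depleted cells as a further readout. Its methods describe guides against different stretches of the largest Resf1 exon, delivered by lentivirus, and edited cells that were sorted and grown out from single cells, so each guide is represented by 1 clonal line as far as these methods tell, and guide and clone cannot be told apart. The 3 libraries of a line are dishes of that line, and the spread given here, and any p-value, measures only the variation between dishes. Resf1 itself was not analysed here, so the labels were not checked on the edited gene.

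The common gamma chain is shared by the receptors for IL-2, IL-4, IL-7, IL-9, IL-15 and IL-21. It binds cytokine together with a private receptor chain, and its cytoplasmic tail carries the kinase JAK3, while the partner chain carries JAK1; the activated kinases phosphorylate STAT factors, STAT5 above all. It is best known in lymphocytes, whose development it supports, and its loss causes X-linked severe combined immunodeficiency. In cells outside the blood lineages, IL-4 is mostly read by a receptor in which the IL-13 receptor chain takes the place of the gamma chain.

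Il2rg lies on the minus strand of the X chromosome. The 250 bases before its annotated start are shown because the level of the transcript is what differs between the lines, together with the same window of Ripk3 and Stk39, the first and the third of the genes whose levels most resembled it (Lpl, the second, is named only). The sequences and coordinates are those of RefSeq on GRCm38.p6, all 3 genes read from the minus strand, at chrX:101268256-101268505 for Il2rg, chr14:55788858-55789107 for Ripk3 and chr2:68471982-68472231 for Stk39. Each runs 5′ to 3′ toward the start, and capitals mark CCGGAA, a core bound by factors of the ETS family, searched on both strands.
Il2rg: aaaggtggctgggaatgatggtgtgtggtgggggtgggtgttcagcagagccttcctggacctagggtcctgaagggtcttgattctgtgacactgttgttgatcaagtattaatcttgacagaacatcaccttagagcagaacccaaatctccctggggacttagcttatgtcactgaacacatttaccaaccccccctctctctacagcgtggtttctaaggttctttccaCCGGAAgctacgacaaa
Ripk3: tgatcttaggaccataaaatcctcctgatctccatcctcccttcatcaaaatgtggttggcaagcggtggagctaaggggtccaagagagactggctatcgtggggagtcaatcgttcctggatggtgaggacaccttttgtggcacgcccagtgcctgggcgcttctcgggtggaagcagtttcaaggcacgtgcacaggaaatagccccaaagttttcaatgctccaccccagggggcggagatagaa
Stk39: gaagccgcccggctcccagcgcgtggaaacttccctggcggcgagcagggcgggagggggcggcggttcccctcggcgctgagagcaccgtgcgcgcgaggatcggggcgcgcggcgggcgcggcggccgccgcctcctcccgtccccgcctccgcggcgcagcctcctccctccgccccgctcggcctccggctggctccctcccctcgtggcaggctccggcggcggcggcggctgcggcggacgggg
The Il2rg window held 1 CCGGAA, whose first base lies 17 bases before the start, and the windows of Ripk3 and Stk39 held none. This core was in 12% of 32851 mouse promoter windows of the same length and in 12.9% of the 954 windows of genes in the table. The shorter ETS core GGAA did not set Il2rg apart. It occurred 4 times in the Il2rg window, 3 times in that of Ripk3 and 3 times in that of Stk39, and was in 93.4% of all windows. The STAT factor motif TTCNNNGAA was in 7.02% of all windows and in none of the 3 shown. Base composition separated the 3 windows: Il2rg had 49.2% GC and 3 CpG dinucleotides, Ripk3 had 54% and 8, and Stk39 had 82.4% and 43, against medians of 52.4% and 6 over all windows and 58.8% and 13 over the genes in the table. A G-quadruplex pattern, searched because the study links the RESF1 protein to such structures and taken as 4 runs of at least 3 G separated by 1 to 7 bases, was in 16.7% of all windows, 26.1% of the table's windows and none of these 3. In the longest Il2rg transcript, of 1670 bases, the pattern was found on the sense strand and not on the antisense strand. Of the 972 genes with a transcript sequence, 257 held it on the sense strand, 315 on the antisense strand, 119 on both and 519 on neither. The study's own predictions, at RESF1 sites in transcribed human sequence, were enriched for quadruplexes with shorter runs of G. The pattern used here does not cover those, so its presence or absence does not bear on that link.

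Il2rg was abundant in sgControl, sg1 and sg2 and about 10 times lower in sg3. In sgControl its normalized counts, which are estimated gene counts divided by a size factor for each library, were 887, 970.4 and 1004, a mean of 954 ± 60.1 (SD, n = 3). In sg1 they were 1115, 1232 and 1229.8, a mean of 1192 ± 66.6 (SD, n = 3). In sg2 they were 1005, 1034 and 1063, a mean of 1034 ± 28.9 (SD, n = 3). The 3 guide lines thus did not move together, and with the libraries scaled as deposited sg1 and sg2 stood slightly above the control rather than below it. In sg3 the values were 80.3, 91.4 and 95.8, a mean of 89.2 ± 7.99 (SD, n = 3), a level that fell by 865 from the sgControl mean. Every sg3 library was below each of the other 9, and the lowest of those 9 was 9.26 times the highest of sg3. Because these are bulk cultures, fewer cells carrying the transcript and less of it per cell cannot be told apart.

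**Figure D1:**
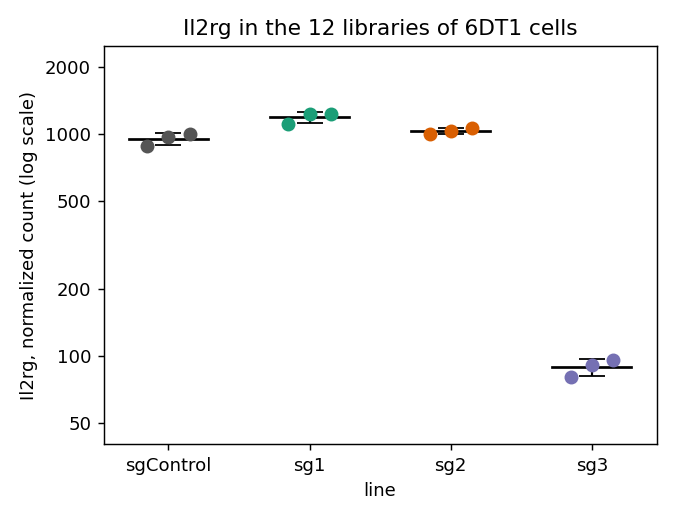
Il2rg in each library (points) by line, as normalized counts on a log axis, with the mean (long bar) and 1 SD (short bars) of 3 libraries. The sg3 libraries lie between 80.3 and 95.8 and all others between 887 and 1232.

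Ordered by mean, and as the libraries were scaled in the deposited table, the lines ran sg3, sgControl, sg2, sg1, and the ranges of no pair of lines overlapped. Under all 3 other scalings tried, the range of sg2 overlapped that of sgControl, and under scaling to the table total that of sg1 did too (1072 to 1156, against 912 to 1147), while sg3 overlapped with sgControl under none. The closest neighbours in that order were sgControl and sg2. Their means differed by 80.0, little more than the SD of 60.1 within sgControl, and the highest sgControl library, at 1003.8, lay just under the lowest sg2 library, at 1005.1. Whether sg2 stood above or below sgControl depended on the scaling of the libraries: with every library scaled to the same total over the deposited genes, the log2 difference of 0.12 became -0.086. The difference of sg1 from sgControl, 238 normalized counts, was larger than either SD as deposited, but its log2 value of 0.32 became 0.11 under scaling to the table total, 0.17 by median of ratios and 0.19 by TMM. From sg1 to sg2 the mean fell by 158, against SDs of 66.6 and 28.9.

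On the log2 scale, with 1 added to each value, Il2rg in sg3 fell by 3.41 (SE 0.08) from sgControl, which is 10.6-fold lower. Against the mean of sg1 and sg2 it fell by 3.63 (SE 0.07), which is 12.3-fold lower. The log2 differences of sg1 and sg2 from sgControl were 0.32 and 0.12 (SE 0.08 each). All 3 contrasts with sgControl use the same 3 control libraries and are not independent of each other. The deposited table was itself limited to genes that differ: in a contrast of the mean of the 3 guide groups with sgControl, all 982 genes passed an adjusted p of 0.05 in limma, and Il2rg stood there at -0.99, although sg1 and sg2 were above sgControl. The adjusted p-values given below for other genes are computed within this selection, which rests on differences in these same libraries. They are not error rates over all genes of the mouse.

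The dishes of a line agreed closely on Il2rg. Its SD over the 3 libraries on the log2 scale was 0.13 in sg3, 0.09 in sgControl, 0.08 in sg1 and 0.04 in sg2, beside medians over all genes of 0.11, 0.09, 0.08 and 0.09 for the same lines. The coefficient of variation was between 2.80% in sg2 and 8.96% in sg3. Behind these values stood an estimated 69.0 to 105 reads a library in sg3 and 903 to 1269.8 in the other libraries, so the sg3 values rest on fewer reads than the others. The table's sums, 2069298 to 2713951 per library, cover only its genes, and the depth of the libraries is unknown. Gm20489, an annotated readthrough gene on the same strand that is not in the table, overlaps Il2rg, and reads in the exons they share cannot be told apart.

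Per kilobase of its longest transcript, Il2rg had 53.4 normalized counts in sg3 and 571 in sgControl, with 714 in sg1 and 619 in sg2. The medians of the 972 genes with a length were much alike in the 4 lines, between 182 and 209. Il2rg ranked 199th from the highest in sgControl, 172nd in sg1 and 181st in sg2, above 79.5% to 82.3% of these genes, and 712th in sg3. The deposited genes are a selection, and these places hold within it only.

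The fall of Il2rg in sg3 was among the largest in the table. Of the 982 genes, 588 (59.9%) passed an adjusted p of 0.05 in limma for sg3 against sgControl, and Il2rg, which was chosen for this pattern, had the 14th lowest log2 difference. In the contrasts of sg1 and sg2 it lay in the middle of the genes, 551st and 600th from the lowest. In 69 genes (7.03%) all 3 sg3 libraries lay below the other 9, the arrangement seen for Il2rg. Among these 69 the lowest of the other libraries was at least 2 times the highest of sg3 in 26 and at least 4 times in 16. Il2rg had the fourth widest gap, after Lpl at 29.1 times, Nes at 24.4 and Fzd7 at 11.4, and ahead of Fbln1 at 7.48. Lpl had a sgControl mean like that of Il2rg, 876 normalized counts, while Fzd7 never passed 51.1.

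**Figure D2:**
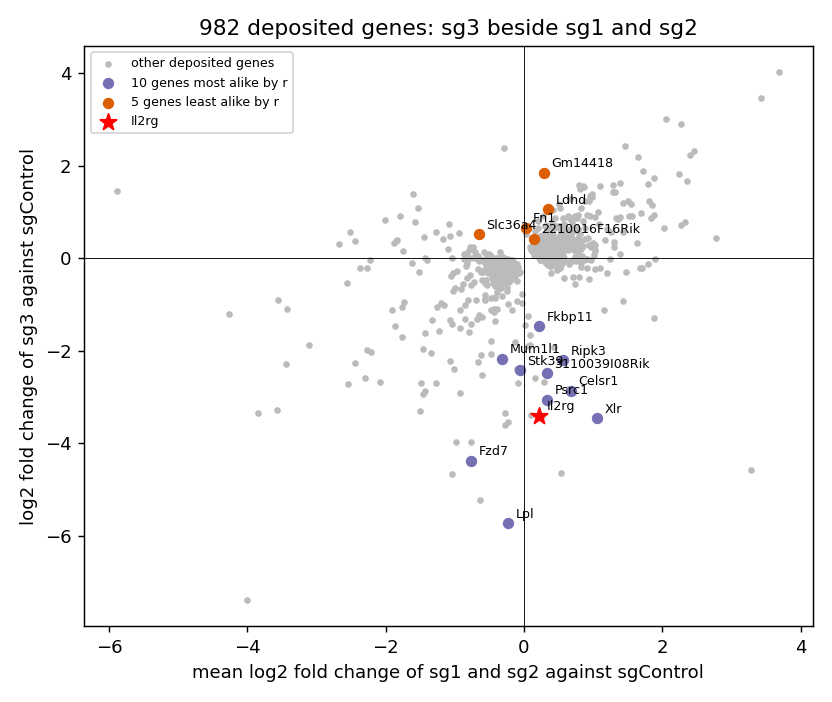
Log2 difference of sg3 from sgControl (vertical) against the mean log2 difference of sg1 and sg2 from sgControl (horizontal) for the 982 genes, all sharing the sgControl libraries. Il2rg (star) lies near 0 on the horizontal axis and at -3.41 on the vertical one, with the 10 genes whose levels were most like it (purple) all below 0 on that axis and the 5 least like it (orange) all above 0.

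The genes whose levels followed Il2rg most closely were Ripk3, Lpl and Stk39, with Pearson correlations of log2 values over the 12 libraries of 0.985, 0.984 and 0.979. The next 7 were Xlr, Celsr1, Fkbp11, Mum1l1, Psrc1, Fzd7 and 3110039I08Rik, at 0.978 down to 0.964, and the 11th gene had 0.956. These correlations describe 12 libraries from 4 lines, which share their cultures and scaling, and no p-value is attached. They rest on the sg3 line: in 23 genes the correlation was above 0.9, and in all 23 the sg3 libraries were below every other. Over the 9 libraries without sg3 the correlations of the same 10 genes with Il2rg ran from -0.75 to 0.89, and 4 were above 0.5.

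Ripk3, a kinase that drives necroptosis, resembled Il2rg in the other lines too, with a correlation of 0.89 without sg3. Its normalized counts were 369, 359 and 380.4 in sgControl, and 81.5, 83.7 and 72.1 in sg3. The sg1 libraries had 598, 625 and 614, and those of sg2 had 503, 495 and 479. The order of the lines was that of Il2rg, lowest in sg3 and highest in sg1, and from sgControl to sg3 it fell by 2.21 (SE 0.08) on the log2 scale, 4.64-fold.

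Lpl, lipoprotein lipase, which releases fatty acids from circulating lipoproteins, had 920.6, 731 and 975 normalized counts in sgControl, 728, 644 and 717 in sg1, and 883, 705 and 798 in sg2. In sg3 it had 22.1, 10.6 and 15.5. Its level in sgControl was near that of Il2rg and in sg3 it fell by 5.73 (SE 0.18) on the log2 scale, more than Il2rg, but sg1 and sg2 had lower means than sgControl, and without sg3 its correlation with Il2rg was -0.70. Stk39, a kinase that acts on ion cotransporters, had 803, 711 and 725 in sgControl, and 134, 137 and 144 in sg3. Its sg1 libraries had 685, 647 and 590.0, and those of sg2 had 863, 749 and 808. Here too sg1 was below sgControl, and the correlation without sg3 was -0.75.

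Among the other 7, Xlr and Mum1l1 lie on the X chromosome, as Il2rg does. Xlr, a lymphocyte-regulated gene of the X chromosome, ranged from 16.3 to 32.8 normalized counts in sg3, against 229 to 293 for sgControl, 517 to 667 for sg1 and 449 to 624 for sg2, and so shared with Il2rg both the low sg3 libraries and the higher sg1 and sg2. Celsr1, a cadherin of the planar polarity system, followed the same order of signs, with 63.0 to 96.3 in sg3, below 533 to 599 for sgControl, 745 to 841 for sg1 and 997 to 1089 for sg2. Fkbp11, a peptidyl-prolyl isomerase of the secretory pathway, fell the least of the 10, from 203 to 229.7 in sgControl to 67.4 to 92.2 in sg3. Psrc1, a spindle protein, and Fzd7, a Wnt receptor, were low genes, with 33.4 to 42.6 and 40.8 to 51.1 in sgControl and 2.74 to 4.66 and 0.91 to 1.93 in sg3, which stand for few reads. In all, with the libraries scaled as deposited, 6 of the 10 had a higher mean in sg1 than in sgControl, as Il2rg did, and 5 had one in sg2. Of these, Psrc1 in sg1 (log2 difference 0.05, SE 0.26) turned negative under all 3 other scalings, and Stk39 in sg2 did under scaling to the table total.

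**Figure D3:**
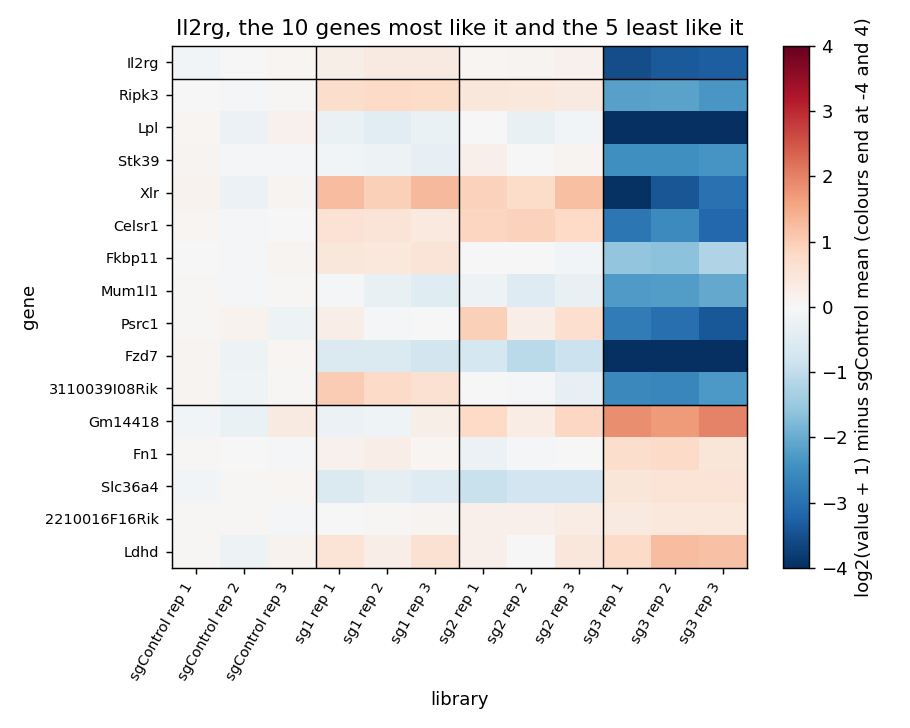
Log2 values (plus 1) minus the sgControl mean in each of the 12 libraries for Il2rg, the 10 genes with the highest correlation to it and the 5 with the lowest; blue is below and red above the sgControl mean, and colours end at -4 and 4. The 3 sg3 columns are blue for Il2rg and all 10 genes most like it, whereas sg1 and sg2 differ in sign between these genes.

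The genes that ran against Il2rg were Gm14418 (correlation -0.89), Fn1 (-0.89), Slc36a4 (-0.83), 2210016F16Rik (-0.80) and Ldhd (-0.79). Fn1 encodes fibronectin, a matrix protein, and had its highest values in sg3, 1048 to 1262 normalized counts, above 714 to 766 for sgControl, 776 to 886 for sg1 and 637 to 730.3 for sg2. Slc36a4, an amino acid transporter, had 339 to 383 in sgControl and 514 to 530.4 in sg3, with 242 to 280.3 in sg1 and 197 to 214 in sg2, and so, with the libraries scaled as deposited, its sign was opposite to that of Il2rg in all 3 guide lines.

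Measured by the distance between the 3 log2 differences from sgControl instead of by correlation, the nearest genes to Il2rg were Psrc1 (0.67), Nme4 (0.81), Rsad2 (0.91), Rgma (0.94) and Celsr1 (0.94), of which Psrc1 and Celsr1 were also among the 10 above. Rgma, a repulsive guidance molecule, had 6.98 to 12.5 normalized counts in sg3, below 92.5 to 123 for sgControl, 194 to 217 for sg1 and 65.4 to 80.4 for sg2. Nme4 and Rsad2 were low throughout, at most 41.3 and 36.2 in any library, and their sg3 values of 0.96 to 8.21 and 1.82 to 2.89 rest on few reads.

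Of the signalling system around Il2rg, little was in the table. None of the 7 partner receptor chains, the 6 cytokines, the 11 JAK kinases and STAT factors or the 18 inhibitors of this signalling was among the 982 genes, so Il2rg cannot be set beside its ligands, partners or kinases here. Of 19 adaptors and kinases that act further downstream, 4 were present. In sg3 against sgControl, Gab1, Gab2 and Ptk2b rose and Syk fell, 4 of 4 past an adjusted p of 0.05 in limma, where 59.9% of all genes passed. The rises of Gab2 and Ptk2b no longer passed when libraries were scaled to the table total. The median log2 difference of the 4 was 0.29 against -0.03 over all genes.

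Gab1, a docking protein phosphorylated below many receptors, had 2066, 2026 and 1974 normalized counts in sgControl and 2796, 3036 and 2909 in sg3, so that it rose in the line in which Il2rg was low, by 0.53 (SE 0.05) on the log2 scale (adjusted p = 1.42e-07, limma). It was lower than sgControl in sg1, at 1664 to 1779. Syk, a kinase that IL-2 receptor signalling can use, had 211, 300.2 and 189 in sgControl and 176, 142 and 144 in sg3, and so fell by 0.57 on the log2 scale (SE 0.16; adjusted p = 0.00563, limma). Its lowest level was not in sg3 but in sg2, at 45.3 to 57.8, where Il2rg was at its control level or just above it. In sg1 against sgControl, where 89.2% of all genes passed, Syk and Ptk2b rose, Gab1 fell and Gab2 did not pass. In sg2, where 59.7% passed, Gab1, Gab2 and Ptk2b rose and Syk fell, the rises of Gab1 and Ptk2b being lost under scaling to the table total (adjusted p = 0.344 and 0.275, limma). Against the mean of sg1 and sg2, where 54.9% passed, Gab1 was higher in sg3 by 0.50 (SE 0.04; adjusted p = 3.36e-08, limma), Ptk2b was lower by 0.18 (adjusted p = 0.00559, limma), a call lost under all 3 other scalings, and Gab2 and Syk did not pass.

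Of 17 genes known as targets of common gamma chain signalling, Myc alone was present, at 15024 to 18849 normalized counts in sgControl and 15030.3 to 18041 in sg3, and its log2 difference of -0.09 did not pass (adjusted p = 0.344, limma). In sg1, where Il2rg was highest, Myc fell by 0.87 on the log2 scale (SE 0.08; adjusted p = 4.38e-08, limma). Of 38 other cytokine receptors of the same classes, Il12rb1, a chain of the IL-12 and IL-23 receptors, was present. It had 171, 186 and 209 in sgControl and 208, 223 and 226 in sg3, with a log2 difference of 0.22 that did not pass (adjusted p = 0.0549, limma), so its sg3 libraries, unlike those of Il2rg, were not below sgControl. With TMM scaling it passed (adjusted p = 0.03, limma). In sg1 and sg2, where Il2rg as deposited also stood above sgControl, Il12rb1 rose by 0.66 (adjusted p = 7.41e-06, limma) and by 0.30 (adjusted p = 0.0139, limma), the latter lost under scaling to the table total (adjusted p = 0.577) and without sgControl replicate 1 (adjusted p = 0.0704).

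One factor of the ETS family, whose core sequence stands before the start of Il2rg, was among the 24 listed and in the table. Etv3 had 830.2, 883 and 848 normalized counts in sgControl and 585, 589 and 477 in sg3, and so fell by 0.64 on the log2 scale (SE 0.09; adjusted p = 2.13e-05, limma). In sg1, the line with the highest Il2rg, it fell by 0.67 (SE 0.09; adjusted p = 3.9e-06, limma). In sg2 its log2 difference was 0.18 and did not pass (adjusted p = 0.0913, limma), although it did with the replicate number as a block (adjusted p = 0.0358).

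**Figure D4:**
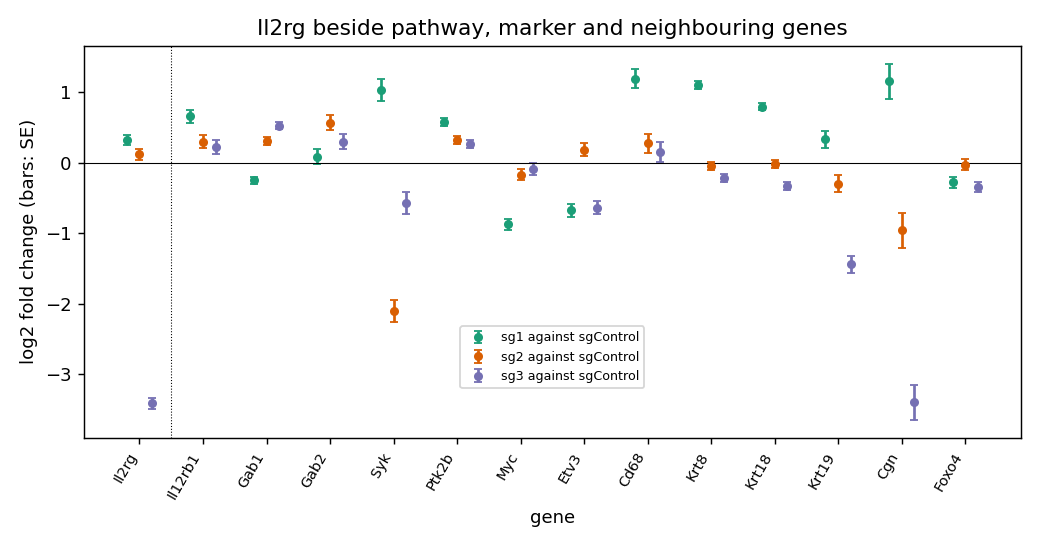
Log2 difference from sgControl of sg1, sg2 and sg3 (points; bars are 1 SE of the limma fit) for Il2rg, left of the dotted line, and for the listed genes in the table and the nearest neighbour Foxo4. Il2rg in sg3 is at -3.41, and of the others only Cgn, at -3.40, comes near it. Cgn differs from Il2rg in sg1 and sg2. Its normalized counts were 39.3 to 50.8 in sgControl and 2.74 to 4.66 in sg3, the latter standing for few reads.

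Since Il2rg is best known from lymphocytes, markers of white blood cells were examined. Of 24 leukocyte markers, including Ptprc and Cd3e, only Cd68, a lysosomal protein abundant in macrophages, was in the table. The others are not analysed here. Cd68 had 139 to 159 normalized counts in sg3, overlapping with 102 to 154 for sgControl and 154 to 169 for sg2, and 283 to 327 in sg1. In sg3 the log2 difference of Cd68 was 0.15 and did not pass (adjusted p = 0.326, limma), in the line where Il2rg was 10.6-fold lower. In sg1 it rose by 1.19 (SE 0.14; adjusted p = 5.04e-07, limma). None of 12 fibroblast and endothelial markers was in the table.

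The epithelial markers in the table were lower in sg3, as Il2rg was. In sg1 they were higher by a median log2 difference of 0.95, where Il2rg as deposited was higher by 0.32. The 4 of 18 that were present, Krt8, Krt18 and Krt19, keratins of simple epithelia, and Cgn, cingulin of tight junctions, summed to 9465 to 10701 normalized counts in sg3 and 12354 to 12825 in sgControl, with 23027 to 25325 for sg1 and 12025 to 12354 for sg2, and their part in the level of Il2rg was not tested. All 4 fell in sg3, where 59.9% of all genes passed, 328 of 982 as falls. All 4 rose in sg1, where 89.2% passed, 492 of 982 as rises (limma, adjusted p at most 0.05). The rise of Krt19 in sg1 was lost under the 3 other scalings. In sg2, where 59.7% of all genes passed, Krt19 and Cgn fell and Krt8 and Krt18 did not pass. Krt19 no longer passed with the replicate number as a block (adjusted p = 0.0551, limma). Krt8 and Krt18 did pass, as falls, under scaling to the table total (adjusted p = 0.0122 and 0.0268, limma). Krt19 fell in sg3 by 1.44 (SE 0.12; adjusted p = 3.09e-08, limma), from 511, 423 and 551 to 168, 218 and 161. Krt18 had at least 4282 in every library of these mammary cells. Krt8, which with Krt18 makes up most of the sum, fell by 0.22 (SE 0.05; adjusted p = 0.00324, limma).

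The deposited genes around Il2rg on the X chromosome did not share 1 direction. The nearest deposited gene, Foxo4, a forkhead factor with 2 protein-coding genes between it and Il2rg, had 475, 478 and 502 normalized counts in sgControl and 364, 411 and 373 in sg3, and so fell by 0.34 on the log2 scale (SE 0.08; adjusted p = 0.00127, limma). It fell similarly in sg1, by 0.28 (SE 0.08; adjusted p = 0.00252, limma), at 408, 425 and 368, although Il2rg was higher there. On the same side, Eda2r, a receptor of the tumor necrosis factor family, 25 protein-coding genes away, rose in sg3 by 1.56 (SE 0.12; adjusted p = 6.07e-09, limma), from 89.8 to 108 in sgControl to 281 to 292. Gspt2, a translation termination factor, rose by 0.48 (SE 0.09; adjusted p = 0.000197, limma), Prkx rose, and Pcyt1b did not pass.

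On the other side, Mum1l1 was lower in sg3, and it is one of the 10 genes most like Il2rg, with 226 to 243 normalized counts in sgControl and 48.9 to 56.6 in sg3; but 190 protein-coding genes lie between them. Zmat1, Phex and Sh3kbp1, with 142, 303 and 314 genes between, rose, and Tmsb4x did not pass. Of the 5 genes on each side, then, 6 rose, 2 fell, Mum1l1 counted among them, and 2 did not pass in sg3, where 59.9% of all genes passed, with a median log2 difference of 0.24 against -0.03 over all genes. The rises of Prkx, Zmat1, Phex and Sh3kbp1 were lost under scaling to the table total. Of all 25 other X genes in the table, 10 rose, 9 fell, Mum1l1 and Xlr counted among them, and 6 did not pass in sg3, beside the same 59.9%, with a median of 0.11 and a range from -3.46 for Xlr to 1.56 for Eda2r. The fall of Il2rg was thus near the lower end of the X genes, next to that of Xlr.

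**Figure D5:**
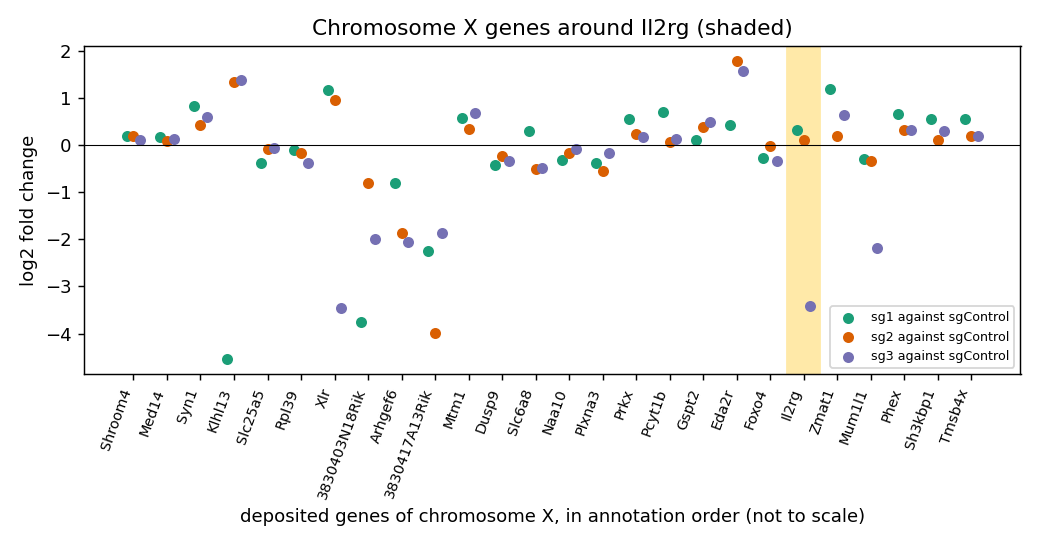
Log2 difference from sgControl of sg1, sg2 and sg3 for the 26 deposited genes of the X chromosome in annotation order, not to scale, with Il2rg shaded. In sg3, Il2rg (-3.41) and Xlr (-3.46) are the lowest, and the genes on either side of Il2rg lie on both sides of 0.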

How the data were processed

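RNA was sequenced from 12 libraries of 6DT1 lines as stranded total RNA. The deposited table holds a normalized signal made by the authors: for each library, estimated counts of genes were divided by a common factor. The values themselves show this, since among those below 100 estimated reads 79.9% to 85.1% of the values of a library were whole to within 0.05 reads, where 10% would be by chance. The submitters' processing notes name STAR 2.7.8a, Partek and DESeq2; the mouse build, annotation and counting are not given in the sources used here, and the study's methods state median ratio scaling for other libraries. A size factor moves all genes of a library together, and reads shared by overlapping genes can be placed with either. Every column had a sample (0 without). Of 982 genes, 972 matched a symbol (GENCODE, GRCm38).

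All groups were fitted together with limma 3.58.1 (R 4.3.3; trend and robust) on log2(value + 1), two-sided, with Benjamini-Hochberg adjustment over 982 genes and a threshold of 0.05, without a filter; the same code was tested on simulated data. No p-value is given for Il2rg or the genes named for likeness to it; of these, Mum1l1 and Xlr are still included in the counts of neighbouring and X genes that passed, to which they also belong. Named genes were Il2rg, the 10 with the highest and 5 with the lowest correlation with it, the 5 nearest by log2 differences, every list member in the table, and the 5 deposited genes on each side of it; X genes, and the genes with the widest gaps, were singled out once their values had been seen. The members and lists were chosen with earlier results of these data known. Alternatives were 3 other scalings, pseudocounts of 0.5 and 5, a filter on a mean of 50, a replicate block and leaving out each library. Same-numbered libraries of sgControl deviated from their group means together with those of sg1 and sg2 (correlations over genes of 0.12 to 0.24) and not with those of sg3 (-0.0786 to -0.00383). By a threshold of 0.1 the replicate numbers thus pair sg1 and sg2 with sgControl, and sg3 not with sgControl. Among the guide lines, 2 pairs of sg1 with sg2 (highest 0.324), 2 of sg1 with sg3 (highest 0.192) and 1 of sg2 with sg3 (0.165) were over 0.1. The p-values given are without the block, which was fitted to all groups as an alternative and is given where it changes a call in sg1 or sg2. A member of the downstream signalling list is not reported here, and the counts for that list leave it out.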

Additional observations from a re-analysis of the deposited data

Results flagged for a closer look

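Several genes named in the report differed between sg3 and the mean of sg1 and sg2 by the test of that difference itself (limma, adjusted p at most 0.05, 3 libraries against 6), as 54.9% of all genes in the table did. Krt8, Krt18, Krt19 and Cgn were lower in sg3, with log2 differences of -0.74, -0.72, -1.46 and -3.50, that of Cgn resting on few reads in sg3. Among the listed signalling genes, targets and receptors, Gab1 was higher by 0.50 and Myc by 0.43, whereas Ptk2b (-0.18) and Il12rb1 (-0.26) were lower. The ETS factor Etv3 (-0.39) and the leukocyte marker Cd68 (-0.58) were lower too. Among the neighbours of Il2rg, Gspt2 (0.23) and Eda2r (0.46) were higher, and Prkx (-0.23), Pcyt1b (-0.26), Foxo4 (-0.19) and Mum1l1 (-1.86) were lower; Mum1l1 is also 1 of the 10 genes most like Il2rg, so its difference is a description. The calls of Ptk2b, Il12rb1 and Foxo4 were lost under all 3 other scalings, where Ptk2b stood at -0.089 to -0.073, Il12rb1 at -0.17 to -0.15 and Foxo4 at -0.10 to -0.084, and those of Prkx (-0.13) and Pcyt1b (-0.15) under scaling to the table total.

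For Il2rg, 6 of the genes named for likeness to it and Slc36a4, 1 of those least like it, all 3 sg1 libraries and all 3 sg3 libraries lay on opposite sides of the sgControl libraries, a difference that was not tested because these genes were chosen for their pattern. The log2 difference of sg3 minus sg1 was -3.73 for Il2rg, -2.94 for Ripk3, -4.62 for Xlr, -3.36 for Celsr1, -1.94 for Fkbp11, -3.29 for 3110039I08Rik and -4.43 for Rgma. It was 1.02 for Slc36a4, the gene of these that was higher in sg3. The sides are those of the libraries as deposited: scaled to the table total, the sg1 libraries of Il2rg (1072 to 1156) overlapped those of sgControl (912 to 1147).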

How the results depend on the processing

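The fall of Il2rg in sg3 had the same direction under every setting run, from -3.51 to -3.35 on the log2 scale against sgControl, and from -3.46 to -3.33 when single libraries were left out. The filter, the replicate block and leaving out a library of sg1 or sg2 could not change this difference from sgControl, so they do not probe it. Scaling to the table total gave -3.51, and against the mean of sg1 and sg2 it gave -3.52 and TMM gave -3.53, with -3.68 to -3.55 over the libraries left out. The small differences of the other lines moved with the scaling. In sg1 the value of 0.32 became 0.11 under scaling to the table total, 0.17 by median of ratios and 0.19 by TMM (0.27 to 0.37 over the libraries left out). In sg2 it became -0.086 under the table total, and it ran from 0.07, without sgControl replicate 1, to 0.16. Scaling to the table total moved the median of all genes by -0.21 in sg1, -0.20 in sg2 and -0.10 in sg3; relative to that median Il2rg stood at 0.12, 0.13 and -3.38 under every scaling. Under that scaling Fn1 in sg1 (-0.047) and Stk39 in sg2 (-0.091) changed sign, as did 2210016F16Rik in sg1 under all 3 scalings (-0.15, -0.095 and -0.0765). Psrc1 in sg1, at 0.046 as deposited and smaller than its spread between dishes, also changed sign under all 3 (-0.162, -0.1045 and -0.087). Of the 10 genes most like Il2rg, 8 to 10 remained in every setting run.

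Leaving out single libraries gave 818 to 889 calls in sg1, 454 to 612 in sg2, 452 to 622 in sg3 and 495 to 541 for sg3 against the other guides. Among named calls in sg3, Gab2 was lost without sgControl replicate 2 (adjusted p = 0.12, limma) or sg3 replicate 3 (0.0603), Zmat1 without sg3 replicate 3 (0.0704), and Prkx without sgControl replicate 3 (0.127), sg3 replicate 1 (0.0947) or sg3 replicate 2 (0.0568); Il12rb1 passed without sgControl replicate 3 (0.0221) and Tmsb4x without 3 of the libraries. Against the other guides, Foxo4 was lost without sg3 replicate 1 or 3 (0.0872 and 0.0736) and Il12rb1 without sg3 replicate 1 (0.059); the calls of Krt19 in sg2 (8 of 12 libraries) and of Krt19 in sg1 were lost likewise. With the replicate block, Il2rg in sg3 stayed at -3.41, since a block that is balanced over the groups leaves their differences unchanged. Calls numbered 893, 671, 661 and 590. Etv3, Sh3kbp1 and Tmsb4x in sg2, Il12rb1 and Tmsb4x in sg3, and Phex and Tmsb4x against the other guides passed, and Krt19 in sg2 was lost (adjusted p = 0.0551, limma). The causes of these changes were not tested. As far as the methods tell each edited line is 1 clone, and a table of preselected genes gives no unchanged set against which the scaling could be judged.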
